A study of Mus musculus with 2 samples.

Results

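The ubiquitin-conjugating (E2) enzyme genes were taken as all genes to which the probe annotation gives a single symbol starting with Ube2. There were 33 such genes among 18193 named genes on the array, read by 81 probe sets. Cortex RNA was hybridised to 2 Affymetrix arrays, 1 per genotype. The wild-type pool combined RNA of 3 mice labelled male, 4 weeks old and of 129/B6 background. The other pool combined RNA of 3 mice labelled male, of the same age and background, titled as knockouts of Gnmt. Gnmt is the gene of the methyltransferase that makes sarcosine from glycine. Which part of Gnmt was removed is not given in the labels. The design has no replicates, since each genotype has 1 array, so no difference could be tested and all ratios below describe these 2 pools alone.

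Ubiquitin is a small protein that cells attach to other proteins to mark them for destruction or to change their partners. An E1 enzyme activates it, an E2 enzyme carries it on a cysteine, and an E3 ligase brings the loaded E2 to a target. Different E2s build different chains of ubiquitin, and a few carry ubiquitin-like proteins such as NEDD8 or ISG15 instead. In neurons, ubiquitin transfer takes part in protein quality control and in the remodelling of synapses.

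The labels of the arrays bear on every value below. The second sample is titled a knockout, but its genotype entry reads wild-type; titles were used here. Gnmt itself gave 10.0 signal units in the wild-type pool and 21.5 in the knockout-titled pool. Both lie below 64.2 units, the 40th percentile of all signals, which served as the floor under which a signal was not counted as measured. Xist, the noncoding RNA made from an inactive X chromosome, gave 49.6 and 2560 units, although both pools are labelled male. Markers of cortical neurons were measured in both pools: all 5 general neuronal markers, all 4 markers of excitatory cortical neurons with a probe set of their own and all 6 interneuron markers. At least 1.5-fold apart were 0 of the 5 neuronal and 0 of the 6 interneuron markers. Of the 4 excitatory markers, 1 was lower and 1 higher in the knockout-titled pool by that much. Summed over 7 anterior pituitary markers, the signal came to 31370 units in wild-type and 726 units in the knockout-titled pool. Of these, Gh gave 23223 and 200 units, while Prl and Cga reached the floor in wild-type only. Past 1.5-fold, 5 of 8 microglia markers were lower in the knockout-titled pool and 1 higher, with summed signals of 12045 and 10506 units. Among astrocyte markers, 4 of 6 were lower and 0 higher, with sums of 39933 and 35465 units. Of all measured genes, 18.2% were lower and 12.5% higher by that much. The part of these tissues and cell types, and of any difference in sex between the pools, in the ratios below was not tested. With 1 array per genotype, such a difference in sex cannot be told apart from genotype. In bulk tissue, fewer cells of a type and less RNA per cell cannot be told apart.

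Ube2h and Ube2k had the highest and the second lowest ratio of the family, and their promoters are shown because RNA of these genes starts beside them. Ube2v2, the lowest, was not matched in the promoter table. Both sequences are the 250 bases before the RefSeq gene start in build GRCm38.p6, 5′ to 3′ on the gene's strand, and capitals mark the motif TGACGTCA, the cyclic AMP response element.
Ube2h, chr6:30304540-30304789, minus strand: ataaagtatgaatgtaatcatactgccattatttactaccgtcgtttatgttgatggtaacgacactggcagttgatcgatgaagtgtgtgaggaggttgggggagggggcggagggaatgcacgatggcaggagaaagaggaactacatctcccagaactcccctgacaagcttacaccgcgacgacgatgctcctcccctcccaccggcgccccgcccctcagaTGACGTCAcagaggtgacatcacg
Ube2k, chr5:65536995-65537244, plus strand: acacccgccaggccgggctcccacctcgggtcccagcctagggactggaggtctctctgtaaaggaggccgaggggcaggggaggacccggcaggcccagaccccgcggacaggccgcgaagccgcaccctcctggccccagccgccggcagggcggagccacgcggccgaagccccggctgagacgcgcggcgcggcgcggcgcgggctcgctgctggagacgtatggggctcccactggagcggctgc
The Ube2h promoter had a GC content of 53.6% and the Ube2k promoter 76.8%. Ube2h has a second RefSeq start, whose window held no TGACGTCA but had the TATA box letters TATAAA on the opposite strand. Of the 33 genes, 27 were matched by gene identifier to 36 promoter windows, some of which overlap; 31 windows belong to 22 of the genes measured on both arrays and are counted here. Their median ratio of observed to expected CpG pairs was 0.84, against 0.71 over 12828 windows of genes measured on both arrays. On either strand, TGACGTCA was in 1 of the 31 windows (3.23%) and in 2.53% of those of measured genes. The ETS factor letters CCGGAAG were in 8 windows of 7 genes (25.8%, against 12.3%), among them Ube2b, Ube2d3, Ube2n and Ube2v1. CCAAT was in 3 windows (9.68%, against 34.6%), TATAAA in 2 (6.45%, against 6.49%) and CACGTG in 2 (6.45%, against 8.12%). The heat shock letters GAANNTTC were in 0 of the 31, against 4.92%. These matches describe letters in the windows, and no binding was measured.

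Of the E2 genes measured in both pools, most lay within 1.5-fold between them, as did most genes on the array. By the brightest probe set of each gene, 28 of the 33 reached the floor on both arrays. Another 2 reached it in the wild-type pool alone and 3 on neither. The log2 ratio of the knockout-titled over the wild-type signal, centred on the median of all measured probe sets, had a median of -0.07 over these 28 genes and -0.06 over all 12244 measured genes. With quantile normalization the family median was 0.083. Of the 28, 22 (78.6%) lay within 1.5-fold, as did 69.3% of all measured genes. At least 1.5-fold lower were 4 of 28 E2 genes, beside 18.2% of all genes, and at least 1.5-fold higher were 2, beside 12.5%. At 2-fold the counts were 2 lower and 0 higher, beside 6.75% and 3.47% of all genes. These shares are from small counts and lie near or under those of all genes. The SD of the ratios was 0.51 over the E2 genes and 0.64 over all genes. Probe sets of the same gene differed with an error SD of 0.58 (1.49-fold), taken from the 2 brightest probe sets of 5375 genes, so 1 probe set that is 1.5-fold apart is about that error away from no difference.

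**Figure D1:**
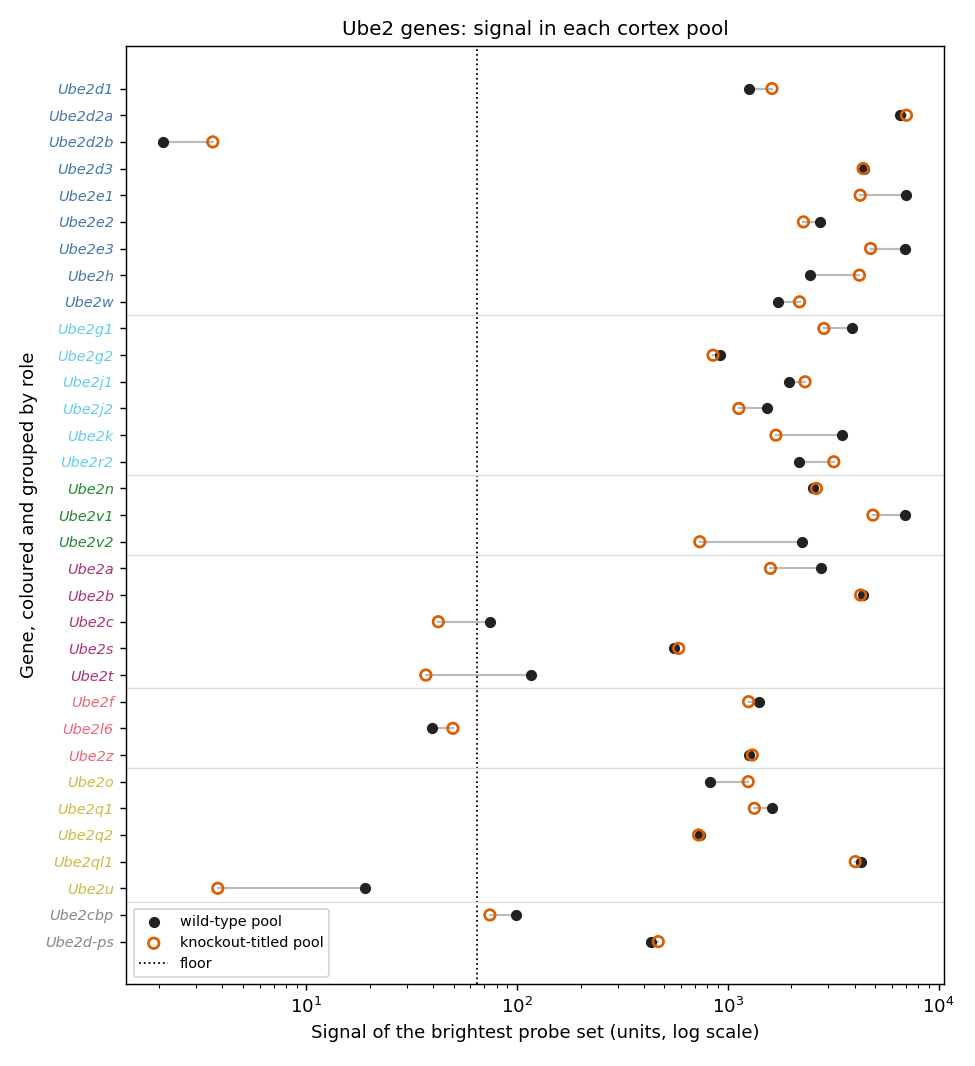
Signal of the brightest probe set of each of the 33 Ube2 genes (horizontal, log scale) in the wild-type pool (filled) and the knockout-titled pool (open), 1 array each, grouped by role. The dotted line is the floor of 64.2 units; Ube2v2 and Ube2k show the widest gaps among genes above it in both pools.

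**Figure D2:**
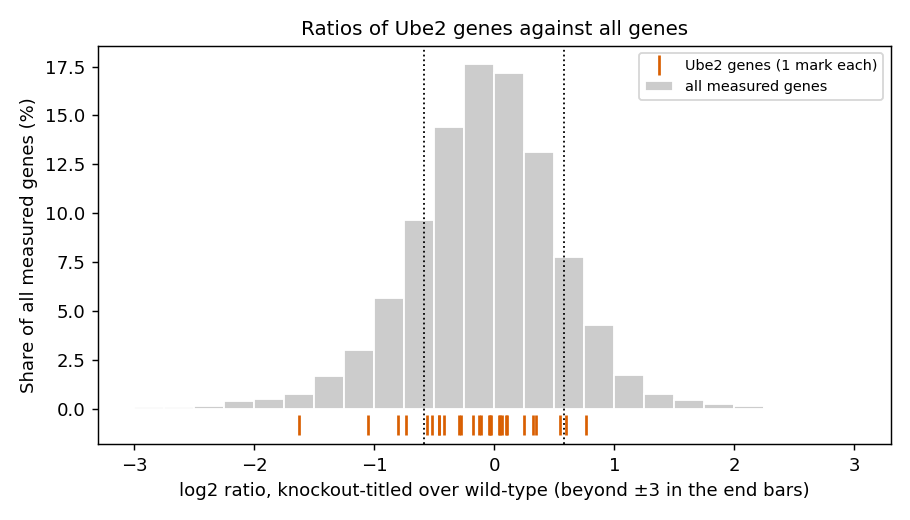
Share of all 12244 measured genes in steps of log2 ratio (bars, vertical axis in percent) and the 28 measured Ube2 genes (1 mark each below the bars); dotted lines mark 1.5-fold. The E2 genes run from -1.62 to 0.76, and 22 of 28 lie between the dotted lines.

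The enzyme pair that builds chains linked through lysine 63 of ubiquitin, which serve in signalling and DNA damage tolerance, held the lowest E2 ratio. Ube2n encodes the catalytic partner, and Ube2v1 and Ube2v2 encode variants that lack the catalytic cysteine and set the linkage. Ube2n had 2527 units in the wild-type pool and 2630 in the knockout-titled pool, a log2 ratio of 0.05, and its other probe set had 0.17. Ube2v2 had 2246 and 736 units, 3.08-fold lower in the knockout-titled pool (-1.62), the widest gap of any measured E2 gene. That value was not shared by the other probe sets of Ube2v2. The second brightest had 1410 and 1079 units (-0.40), the third 482 and 499 units (0.04), and the fourth was below the floor in both pools. The median over the 3 measured ones was -0.40. Ube2v1 had 6919 and 4879 units (-0.52) and 4007 and 3154 units (-0.36), so both of its probe sets were lower in the knockout-titled pool within 1.5-fold. By their brightest probe sets the catalytic partner differed 1.03-fold, while both variants were lower in the knockout-titled pool. Both Ube2v1 probe sets and the brightest of Ube2v2 have suffixed names, which mark possible binding to several transcripts. Without suffixed probe sets Ube2v2 had -0.40 and Ube2v1 had no value. The median of the group was then -0.18, against -0.52 with them.

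Among E2s that extend chains or serve degradation at the endoplasmic reticulum, 1 of 6 measured genes was at least 1.5-fold lower and 0 were higher, beside 18.2% and 12.5% of all genes. Their median ratio was -0.29, but 0.060 by second brightest probe sets and 0.015 without probe sets whose suffixed names mark possible binding to several transcripts. Ube2k, which builds chains linked through lysine 48 that lead to the proteasome and binds the huntingtin protein, had 3473 and 1690 units, 2.07-fold lower. The next Ube2k probe set had 638 and 512 units (-0.33), and the third went the other way at 101 and 321 units (1.66). Another reached the floor in the knockout-titled pool alone, at 24.2 and 103 units. The probe sets of Ube2k therefore disagree in direction, the 2 brightest being lower and the next 2 higher in the knockout-titled pool. Ube2r2, a close relative of the cullin-dependent E2 Cdc34, was the highest of the group, with 2164 and 3181 units (0.54) and a second probe set at 0.16. Ube2g1 had 3896 and 2856 units (-0.46) and a dimmer probe set at 0.19. Ube2g2, an E2 of endoplasmic reticulum degradation, had 922 and 851 units (-0.13), with its other probe set at -0.04. Both membrane-anchored E2s of the endoplasmic reticulum gave probe sets of opposite sign. Ube2j1 had 1946 and 2324 units (0.24) against 303 and 186 (-0.72). Ube2j2 had 1541 and 1127 units (-0.46) against 82.1 and 301 (1.86).

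Of 9 E2 genes that work with many E3 ligases, 8 were measured, with 1 at least 1.5-fold lower and 1 higher, beside 18.2% and 12.5% of all genes. Their median was 0.03, or -0.18 without suffixed probe sets. Ube2h, an E2 that can modify histones and acts with the CTLH ligase, had 2460 and 4209 units, 1.70-fold higher in the knockout-titled pool (0.76). All 4 of its probe sets were higher there, the others having 1765 and 2685 units (0.59), 901 and 1048 (0.21) and 351 and 380 (0.10). The brightest Ube2h probe set has a suffixed name. Without suffixed probe sets Ube2h had 0.59, at the edge of 1.5-fold, and the median over its 4 probe sets was 0.40. No other E2 gene had 4 measured probe sets that all pointed one way. Ube2e1 had 7012 and 4244 units, 1.67-fold lower (-0.74), but its second probe set had 76.5 and 290 units (1.91), again the opposite sign. Its paralogs Ube2e3, at 6951 and 4756 units (-0.56), and Ube2e2, at 2743 and 2283 units (-0.28), were also lower by their brightest probe sets and stayed within 1.5-fold. The Ube2d genes encode the most widely used E2s. Ube2d3 had 4434 and 4383 units (-0.03), and its 7 probe sets lay between -0.56 and 0.08. Ube2d2a had 6531 and 7035 units (0.10), and its 4 measured probe sets lay between -0.29 and 0.10. Ube2d1 had 1260 and 1620 units (0.35). Neither Ube2d3 nor Ube2d2a had a probe set measured on both arrays that was 1.5-fold apart. Ube2d2b, a copy known from testis, gave 2.1 and 3.6 units and was below the floor in both pools. Ube2w, which can modify the amino end of proteins, had 1738 and 2189 units (0.32), with all 3 measured probe sets above 0.

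**Figure D3:**
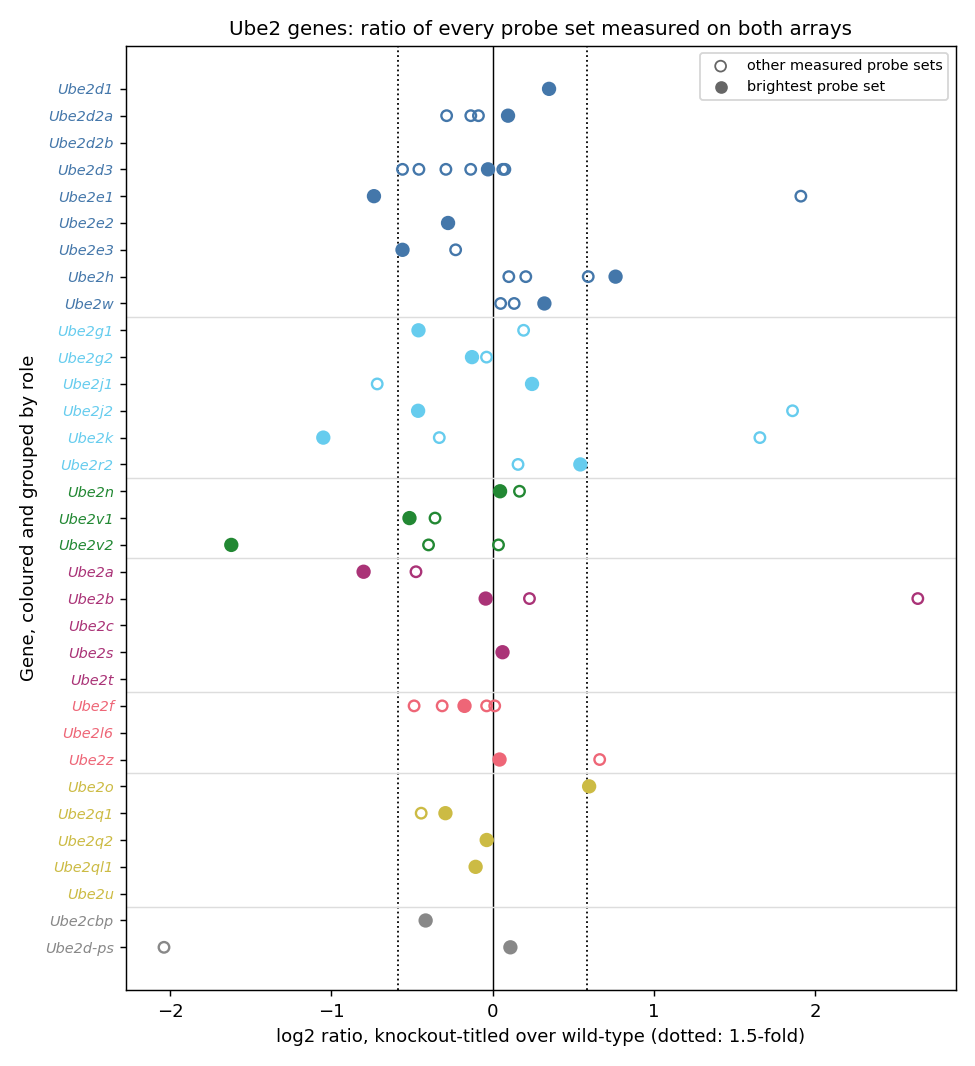
Log2 ratio of knockout-titled over wild-type signal for each of the 65 Ube2 probe sets measured on both arrays, by gene and grouped by role; filled points are the brightest probe set of a gene and open points the others, and dotted lines mark 1.5-fold. Ube2h and Ube2a keep 1 sign over all their probe sets, while Ube2e1, Ube2j2, Ube2k and Ube2b spread to both sides.

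In the group of DNA repair and mitotic E2s, 1 of 3 measured genes was at least 1.5-fold lower, beside 18.2% of all genes. Their median of -0.04 rests on few genes: it was 0.095 with quantile normalization, -0.42 without suffixed probe sets, -0.84 with the floor at the 25th percentile and -0.91 without a floor, where Ube2c and Ube2t also count. Ube2a, an X-linked gene mutated in an intellectual disability syndrome, had 2751 and 1593 units, 1.74-fold lower, and its other probe set had 1904 and 1381 units (-0.48). Both Ube2a probe sets were lower in the knockout-titled pool. Xist also differed between the pools, and the part of sex in the ratio of this X-linked gene was not tested. Its paralog Ube2b, like Ube2a a mouse counterpart of yeast Rad6, had 4359 and 4265 units (-0.04) and 2735 and 3231 units (0.23). The third Ube2b probe set stood far from these at 367 and 2305 units (2.64), the highest ratio of any E2 probe set. Its dimmest probe set reached the floor in the knockout-titled pool alone, at 29.5 and 329 units, at least 5.08-fold higher. The bright probe sets of Ube2b thus showed no gap near 1.5-fold and the dim ones a large one. The mitotic E2s act with the anaphase-promoting complex, and few cells divide in the cortex at this age. Ube2s, which elongates chains on that complex, had 556 and 585 units (0.06). Ube2c, which starts those chains, had 74.6 and 42.3 units, at least 1.17-fold higher in the wild-type pool. Ube2t, the E2 of the Fanconi anaemia pathway, had 117 and 36.9 units by one probe set and 5.4 and 135 units by the other. These gave lower bounds in opposite directions: at least 1.83-fold higher in wild-type by the first, and at least 2.09-fold higher in the other pool by the second.

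E2s for ubiquitin-like proteins lay within 1.5-fold by their brightest probe sets, where measured. Ube2f, which passes NEDD8 to cullin 5, had 1404 and 1254 units (-0.17), and its 5 measured probe sets ran from -0.49 to 0.01. Ube2z, which is loaded by the E1 Uba6, had 1257 and 1306 units (0.04), and its second probe set had 253 and 403 units (0.66). Its dimmest probe set reached the floor in wild-type alone, at 76.0 and 7.2 units, the opposite direction. Ube2l6, the interferon-induced E2 for ISG15, had 39.5 and 49.6 units and was below the floor in both pools. Among the larger and less studied E2s, Ube2o, a very large enzyme that combines E2 and E3 functions, had 818 and 1249 units, 1.51-fold higher (0.60) by its single probe set. That value lies at the edge of 1.5-fold. Ube2q1 was the lowest of this group, with 1623 and 1336 units (-0.29) and another probe set at -0.44. Ube2q2 had -0.04 and Ube2ql1 -0.11, while Ube2u was below the floor in both pools at 19.0 and 3.8 units. The symbol rule also took in a pair of genes that are no E2 enzymes. Ube2cbp encodes an E2-binding ligase and had 98.3 and 74.3 units (-0.42). Ube2d-ps is a pseudogene related to the Ube2d genes and had 430 and 468 units (0.11), while its other probe set had 334 and 81.9 units (-2.04).

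The probe sets of an E2 gene often disagreed, on small counts. The dimmest was more often the higher in ratio, as it also was among all genes. Of 21 E2 genes with at least 2 measured probe sets, the dimmest was at least 1.5-fold above the brightest in its ratio for 7, beside 23.4% of all such genes, and at least 1.5-fold below it for 3, beside 16.4%. The 7 were Ube2k, Ube2b, Ube2e1, Ube2j2, Ube2v2, Ube2g1 and Ube2z, and the 3 were Ube2d-ps, Ube2j1 and Ube2h. The differences ran from -2.15 for Ube2d-ps to 2.71 for Ube2k, with a median of 0.16, against 0.02 over 5375 genes. For Ube2k, Ube2b, Ube2e1 and Ube2j2 the difference was over 2 on the log2 scale. With all measured probe sets that name 1 gene split at the quartiles of mean signal, the median ratio was 0.05 in the dimmest part and -0.08 in the brightest, and over the 7 and 34 E2 probe sets in these it was 0.13 and -0.14. The whole-array median signals were 92.0 (wild-type) and 124.9 units (knockout-titled), so low signals were higher on the latter array in general. Counting every probe set, 6 of 65 measured E2 probe sets were at least 1.5-fold lower and 8 higher, beside 18.1% and 16.5% of all probe sets. At 2-fold there were 3 lower and 4 higher, beside 7.01% and 6.95%. A further 6 of the 81 reached the floor in the knockout-titled pool alone, beside 7.48% of all probe sets, and 3 in the wild-type pool alone, beside 4.07%. The probe sequences are not used here, so whether probe sets of a gene read different transcript forms was not tested.

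**Figure D4:**
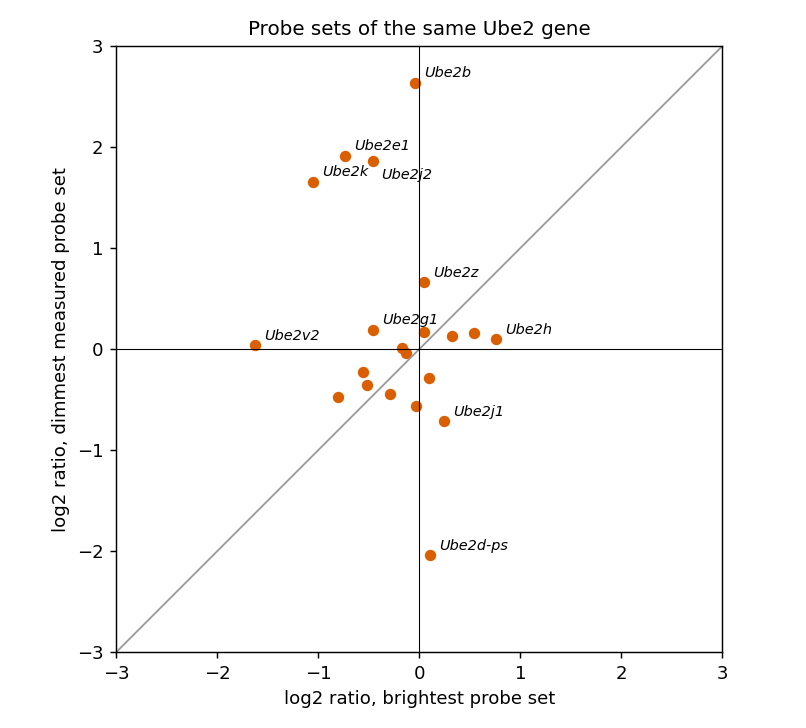
Log2 ratio of the dimmest measured probe set (vertical) against that of the brightest (horizontal) for the 21 Ube2 genes with at least 2 measured probe sets; each point is a gene, the diagonal marks equal ratios, and genes at least 1.5-fold off it are named. Ube2b, Ube2e1, Ube2j2 and Ube2k stand far above the diagonal and Ube2d-ps far below.

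Among the genes that act before the E2s, both subunits of the NEDD8-activating enzyme were lower in the knockout-titled pool. Past 1.5-fold, 2 of 7 measured E1 genes were lower and 1 higher, beside 18.2% and 12.5% of all genes. Their median of -0.35 turned to 0.06 with quantile normalization and was -0.025 without suffixed probe sets. The 2 lower ones were those subunits, which together load Ube2f. Nae1 had 4589 and 2131 units, 2.17-fold lower by its only measured probe set. Uba3 had 2852 and 1613 units, 1.78-fold lower, and its 3 measured probe sets ran from -0.83 to -0.54. Uba7, the E1 for ISG15, was the highest at 0.86, with only 79.9 and 146 units. Its other measured probe set went the opposite way, at -0.45. The 5 modifier genes measured had a median of -0.33, with 2 lower and 0 higher past 1.5-fold, beside the same shares of all genes. Urm1, a ubiquitin-like protein of transfer RNA sulfur chemistry, had 692 and 318 units (-1.13), with its 4 probe sets between -1.16 and -0.56. Ufm1 was the highest at 0.09, and Nedd8 itself had 4573 and 4218 units (-0.13).

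Some E2 enzymes and E2 variants carry other names than Ube2. Past 1.5-fold, 2 of 8 such genes were lower and 2 higher, beside 18.2% and 12.5% of all genes, around a median of 0.02. The 8 include Tsg101 (0.08), Uevld (-0.07) and Aktip (-0.03), which like Ube2v1 and Ube2v2 are variants without the catalytic cysteine. These lie near 0, so the median is not that of the enzymes alone. Atg3, the E2 of autophagy that lipidates LC3, had 1770 and 650 units, 2.74-fold lower by its only measured probe set. Cdc34, the E2 of cullin ligases, had 1362 and 634 units, 2.16-fold lower, also by its only measured probe set. Its relative Ube2r2 had 0.54. Birc6, a giant E2 that restrains cell death, had 1765 and 3272 units, 1.84-fold higher.

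Among the E3 ligases that receive ubiquitin from E2s, the HECT family had 6 of 20 measured genes past 1.5-fold on the higher side and 0 on the lower side, and a median of 0.21. Hecw2 was the highest, with 543 and 1443 units (1.40) and another probe set at 0.39. Smurf2 was the lowest at -0.49, and Ube3a, the gene of Angelman syndrome, had 3846 and 4210 units (0.12). RBR ligases, which like HECT ligases pass ubiquitin through a cysteine of their own, had 3 of 11 lower and 1 higher, with a median of 0.06, or -0.34 without suffixed probe sets. Their lowest was Rnf19b at -0.66 and their highest Rnf144a at 0.72. Cullin ligase cores had 1 of 14 lower and 2 higher, with a median of -0.14, or 0.022 without suffixed probe sets. Cul3 had 1999 and 819 units (-1.30), with its 5 probe sets reaching 0.04, and Dcun1d1, which helps attach NEDD8 to cullins, had 264 and 819 units (1.62), with its 5 probe sets from -0.79. Rbx1 was below the floor in both pools. The anaphase-promoting complex, the partner of Ube2c and Ube2s, had 4 of 15 lower and 1 higher. Its median of -0.30 was 0.0032 by second brightest probe sets, 0.0082 without suffixed ones and -0.087 by the median of probe sets. Anapc10 was the lowest at 871 and 314 units (-1.48), with its other probe set at -2.21, Anapc11 had -1.08 and Anapc1 was the highest at 0.97. All these counts are to be read beside the 18.2% of all genes that were lower and the 12.5% that were higher.

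**Figure D5:**
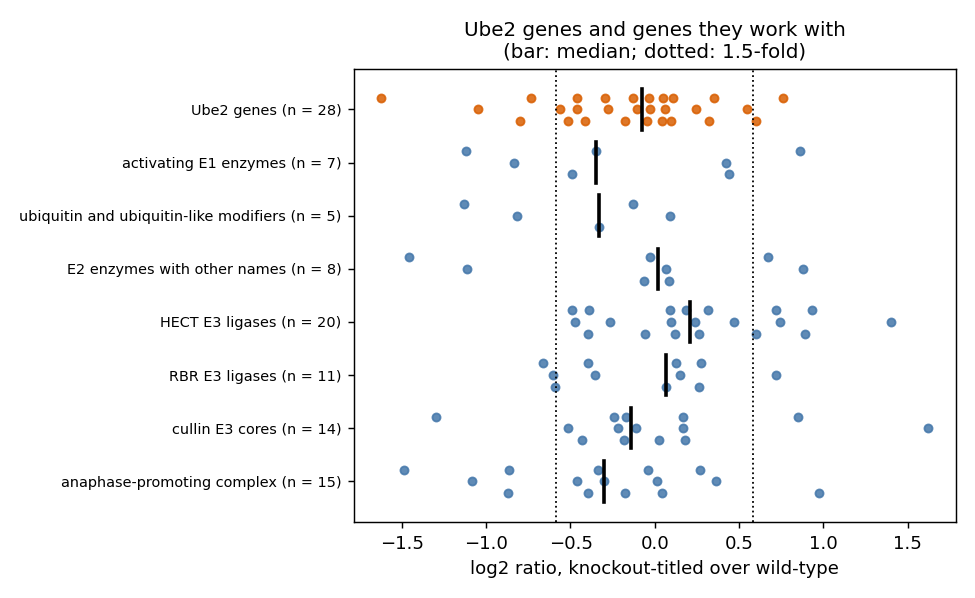
Log2 ratio of knockout-titled over wild-type signal (horizontal) for the 28 measured Ube2 genes and for the measured genes of 7 lists they work with; each point is a gene by its brightest probe set, black bars are medians and dotted lines mark 1.5-fold. The medians run from -0.35 for E1 enzymes (0.06 with quantile normalization) to 0.21 for HECT ligases, and every list has genes on both sides of 0.

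The E2 genes were spread over a range of gene lengths, with a median span of 36.2 kb, against 24.9 kb over all measured genes with a RefSeq entry. Across the 28 E2 genes the Pearson correlation of the ratio with the logarithm of the span was -0.003, and across 12198 genes it was 0.11. Genes of the same 2 arrays are not independent replicates, and both values are descriptions.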

How the data were processed

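The authors deposited 1 linear signal intensity per probe set and array, for 45101 probe sets, of which 64 were controls. Per the labels' protocols, RNA was extracted with Trizol, and the submitters' processing notes name the Affymetrix software GCOS, with no version or signal algorithm given in the sources used here. The mean of each array after trimming 2% at either end was 500.0, so the deposited intensities had been scaled to a common mean.

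The floor was the 40th percentile of non-control signals. Ratios were centred by subtracting 0.01, their median over probe sets above the floor on both arrays. Genes were named from the platform annotation: 34945 probe sets had 1 symbol, 932 several and 9160 none. Of the first, 34741 matched RefSeq (GRCm38.p6) by gene identifier. Each gene took the values of its brightest probe set (mean log2 signal of both arrays). Where only 1 array passed the floor, the other was set to the floor and the ratio given as a lower bound. Without replicates no p-value or standard error was calculated. Precision is limited by the number of arrays.

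Text values were given for E2 genes at least 1.5-fold apart, those above the floor on 1 array, the ends of each role group, and those with opposing probe sets, and the remaining members are given more briefly. Of each partner list the ends and members at least 2-fold apart could be named, and Gnmt, Gh, Prl, Cga and Xist as checks. Uba1y, Uba3, Nedd8, Rbx1, Ube3a, Tsg101, Uevld and Aktip were named after their values were seen. The promoter motifs were also chosen after the values were seen. The members, roles and lists were chosen with earlier results of these data known. Calculations were tested on simulated data. Alternatives covered the floor, scaling and choice of probe set. The tools were numpy 2.4.6, matplotlib 3.10.9, scipy 1.17.1, pandas 2.3.3 and statsmodels 0.14.6 in Python 3.11.15.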

Additional observations from a re-analysis of the deposited data

How the results depend on the processing

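The family median of -0.07 became -0.21 without a floor and 0.083 with quantile normalization, and lay between -0.15 and 0.01 under the 7 other planned settings. The 4 of 28 genes at least 1.5-fold lower, beside 18.2% of all genes, became 7 of 31 with the floor at the 25th percentile (20.6% of all genes) and 9 of 33 without a floor (27.2%). They became 2 of 28 by the median of all probe sets (16.9%) and 2 of 21 by the second brightest one (19.1%). The share of all genes thus also rose in the first 2 settings, but by second brightest probe sets it rose while the E2 count fell. The 2 genes at least 1.5-fold higher became 1 of 31 with the floor at the 25th percentile (13.0% of all genes) and 4 of 21 by second brightest probe sets (19.4%). The 2 genes at least 2-fold lower became 4 without a floor, 0 by the median of probe sets, and 1 with the floor at the 60th percentile, quantile normalization, loess, second brightest probe sets or suffixed probe sets left out. The 0 genes at least 2-fold higher became 2 by second brightest probe sets and 1 without suffixed ones. Ube2e1 turned from -0.74 to 0.59 by the median of its probe sets and to 1.91 by the second brightest, and no other named member at least 1.5-fold apart changed sign under the 9 planned settings. All 4 lower genes stayed at least 1.5-fold lower with no centring, loess and the other floors, 3 with quantile normalization or without suffixed probe sets, 1 by the median of probe sets, and 0 by second brightest probe sets. Leaving out Ube2cbp and Ube2d-ps, chosen after the data were seen, changed none of these counts. The cause of these changes was not tested. No paired analysis was possible because each genotype had 1 array. Signals near or below the floor limit Ube2c, Ube2t, Ube2u, Ube2d2b and Ube2l6. Among other genes, dim probe sets of Ube2e1, Ube2j2 and Ube2k had wild-type signals of 76.5, 82.1 and 101 units, against a floor of 64.2. A dim Ube2d-ps probe set had 81.9 units in the knockout-titled pool. The sign change of Ube2e1 rests on its dim probe set.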

Other observations

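Ube2l3, an E2 for HECT and RBR ligases, was read by 4 probe sets that each name 5 genes, the others being predicted genes, and so was outside the family as chosen by single symbols. They had 3490 and 4168 units (0.24), 3112 and 3300 units (0.07), 2156 and 2413 units (0.15), and 864 and 864 units (-0.01) in the wild-type and knockout-titled pools. All 4 were within 1.5-fold, and the signals of these genes cannot be told apart.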
